A study of Gallus gallus with 12 samples.

Results

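The genes described here build the melanosome, the organelle that holds melanin, and carry it to the cell's edge. They were chosen by name from a list of 10 gene symbols, and the 9 that the expression table lists were kept: RAB27A, MLPH, MYO5A, RAB38, RAB32, HPS1, HPS3, HPS5 and AP3B1, out of 24353 rows of which 13688 carry a symbol. The tenth name, LYST, was not analysed here. RNA came from feather follicles plucked from the nape of F3 chickens of a cross between Huiyang Bearded, a breed with yellow plumage, and White Leghorn, a breed with white plumage. Yellow and white birds were sampled at 7 and at 11 weeks of age, as 3 libraries of each colour at each age, 12 in all. By the study's genotyping, every bird of both colours carried the Dominant white allele of PMEL in the form II or Ii. These forms were not balanced between the colours. Most white birds were II, among them all those of 11 weeks, and most yellow birds of each age were Ii. The part of this imbalance in the colour differences was not tested. Every bird was CC at the recessive white locus of TYR and s/W at Silver, the genotype of a hen. A follicle is a mix of keratinocytes, dermal pulp and a few melanocytes, so in these bulk libraries fewer melanocytes and less RNA per melanocyte cannot be told apart.

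Melanosomes form from endosomes in neural crest-derived melanocytes. RAB32 and RAB38 are closely related small GTPases that direct tyrosinase and TYRP1 from endosomes to the maturing melanosome. They act with the AP-3 adaptor, with BLOC-2 and with BLOC-3, which switches both GTPases on. The finished melanosome is then held in the actin-rich periphery by a chain of 3 proteins in which RAB27A on the melanosome binds melanophilin (MLPH), which binds the motor myosin Va (MYO5A). In humans and mice, loss of these genes gives the pigment dilution of Griscelli syndrome (RAB27A, MLPH, MYO5A) or Hermansky-Pudlak syndrome (HPS1, HPS3, HPS5, AP3B1). In chickens a change in MLPH underlies the lavender plumage.

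The expression unit is FPKM, the fragments of a gene scaled by its length and by the library's fragments, and log2 values were taken of FPKM + 0.1, which understates the change of low genes. How many reads lie behind a value is unknown. Summed over all rows, a library held between 640571 and 830214 FPKM. Among 11242 genes whose mean FPKM was 1 or more, yellow replicate 3 of 11 weeks had 488 genes more than 2-fold above both other libraries of its group, and the other 11 libraries had 35 to 174. Yellow replicate 3 of 7 weeks had 354 genes more than 2-fold below both others, and the other libraries had 44 to 204. Yellow replicate 4 of 7 weeks was the highest of its group for 7 of the 9 genes and yellow replicate 3 of 7 weeks for 0 of them. Without either yellow replicate 3, the members past both thresholds with age in yellow follicles were 5 and not 7. The share of all genes passing upwards was 12.5% without that of 7 weeks and 18.1% without that of 11 weeks, beside 20.2% with all. HPS5 lost its call in both (adjusted p = 0.0656 and 0.0588 in that order, limma). AP3B1 lost its call in both as well, since its log2 fold change fell to 0.95 and 0.98, under the limit of 1. Of 13 melanocyte markers, 12 had a row and none was at 0. Their summed FPKM was 722 to 1731 in white and 219 to 406 in yellow follicles at 7 weeks, and 349 to 670 in white and 155 to 234 in yellow follicles at 11 weeks. PMEL made up much of that sum, with 1066 of the 1731. Gene by gene, 10 of the 12 lay below 0 in yellow against white follicles, 3 of them called at an adjusted p of 0.05, and 2 lay above 0, KIT and MC1R, by up to 0.98 on the log2 scale.

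FPKM compares genes per length, and on that scale the 9 genes spanned a wide range. In white follicles of 7 weeks HPS1 (16.6 ± 1.02, SD, n = 3) and RAB27A (16.4 ± 1.91) stood first and did not differ beyond their spread. RAB32 followed at 10.5 ± 1.23, MLPH at 4.26 ± 0.885, AP3B1 at 3.23 ± 0.120 and HPS5 at 1.70 ± 0.256. HPS3, MYO5A and RAB38, at 0.795, 0.686 and 0.665, overlapped one another. In yellow follicles of 11 weeks the order was different. RAB32 (48.4 ± 18.6) and RAB27A (46.1 ± 4.29) were on top and overlapped, followed by HPS1 (15.0 ± 4.52), MLPH (13.9 ± 1.29) and AP3B1 (10.2 ± 1.44), which overlapped in part. HPS5, MYO5A, RAB38 and HPS3, at 5.01, 4.91, 4.30 and 4.02, could not be ranked beyond their spread.

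**Figure D1:**
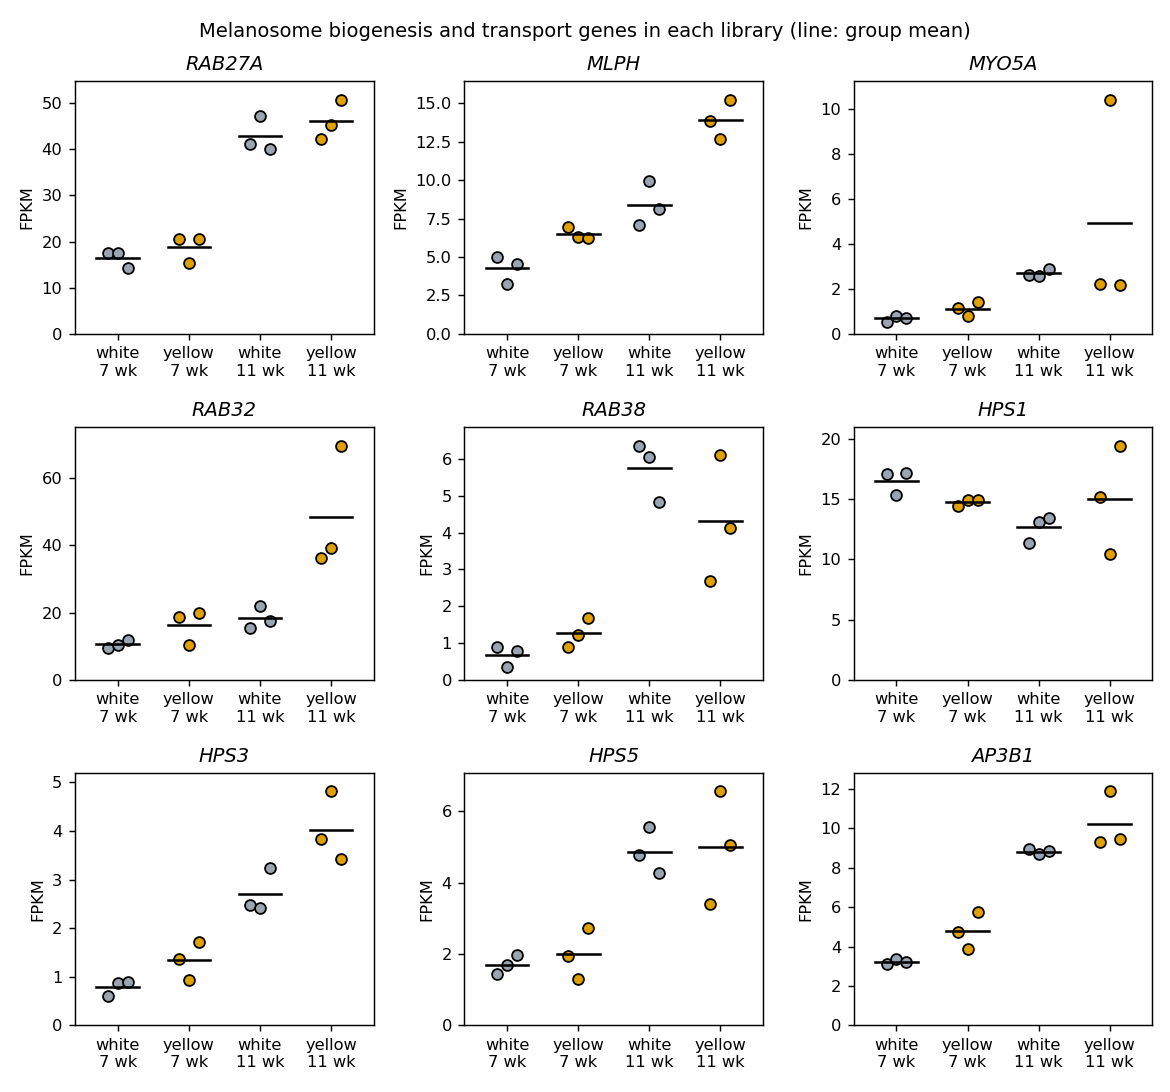
FPKM (vertical axis, linear from 0) of each of the 9 genes in the 12 libraries, in 4 groups of 3 libraries by colour and age, with a point per library and a line at the group mean. The RAB32 libraries of yellow follicles at 11 weeks lie at 36.2 to 69.8 and those of white follicles at 15.4 to 22.1, while 8 of the 9 genes, HPS1 being the exception, are higher at 11 than at 7 weeks in each colour without overlap.

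The first question was whether the machinery differs between yellow and white follicles. Averaged over both ages, all 9 log2 fold changes of yellow against white lay above 0, from 0.02 for HPS1 to 0.96 for RAB32, as did 62.1% of all genes, with a median of 0.37 beside 0.07 over all 14553 genes tested. Only MLPH reached an adjusted p of at most 0.05 (limma, Benjamini-Hochberg over all genes tested), where 0.192% of all genes did so in that direction, and MLPH lost that call in 15 of the 20 alternative settings. No member passed both thresholds, the study's limits of 0.05 on the adjusted p and of 1 on the log2 fold change in either direction, which 0.206% of all genes passed. At an unadjusted p under 0.05 there were 4 members, MLPH, RAB32, AP3B1 and HPS3, beside 2517 of all genes. Within 7 weeks 0 members and 0.0288% of all genes passed both thresholds, and within 11 weeks 0 members and 0 of all 14806 genes did, with 3 members at an unadjusted p under 0.05 at each age beside 2091 and 1070 of all genes. The study's own count-based test, at the same limits, did list RAB32 among the genes that differed at 11 weeks. It also listed SYTL2, a further gene of the pathway. Without yellow replicate 3 of 7 weeks, MLPH, RAB32, HPS3 and AP3B1 had an adjusted p of at most 0.05 in the average, and without yellow replicate 4 of 7 weeks none of them did. Calls moved for all genes as well. Past both thresholds upwards were 0.343% of all genes without that replicate 3 and 0.0274% without that replicate 4. With all libraries 15 of 14553 were. The share at the adjusted p alone is not given here for these settings.

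RAB32 showed the widest gap between colours at 11 weeks among the 9 genes. It lies on chromosome 3 (chr3:46971120-46990282 on GRCg6a, as the table gives it) under the identifier ENSGALG00000012300. At 7 weeks its FPKM was 9.33, 10.5 and 11.8 in the white libraries and 18.6, 10.4 and 19.9 in the yellow ones. Yellow replicates 1 and 4 were thus above all white libraries and replicate 3 was within them. At 11 weeks it was 15.4, 22.1 and 17.3 in white and 36.2, 39.2 and 69.8 in yellow follicles. All yellow libraries lay above all white ones there, and replicate 4 was far above the other yellow libraries. The ratio of the means was 1.55 at 7 weeks and 2.65 at 11 weeks. The log2 fold change was 0.58 (SE 0.25, adjusted p = 0.332) at 7 weeks and 1.35 (SE 0.27, adjusted p = 0.414) at 11 weeks. The average of 0.96 (SE 0.20) had an adjusted p of 0.0757 from limma. The two-sided exact permutation test of colour labels within each age gave p = 0.015, with 400 arrangements and a smallest p of 0.005. Both tests treat the libraries of both ages as separate birds, which is not known. Without yellow replicate 3 of 7 weeks the average of RAB32 was 1.11, with an adjusted p of 0.0237 from limma. It then passed both thresholds, as did 0.343% of all genes upwards. The colour difference of RAB32 was not shown to differ between the ages (difference 0.78, adjusted p = 0.741).

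RAB38 is the closest relative of RAB32. It lies on chromosome 1 (chr1:189576306-189596533, ENSGALG00000028018), 373 kb from TYR, the gene of tyrosinase that RAB38 and RAB32 help to deliver. At 7 weeks its FPKM was 0.891, 0.334 and 0.769 in white and 0.900, 1.22 and 1.69 in yellow follicles. Every yellow library was thus above every white one, the lowest yellow one just above the highest white one. At 11 weeks it was 6.37, 6.06 and 4.84 in white and 2.67, 6.10 and 4.14 in yellow follicles. There the yellow mean was the lower one, with replicate 3 inside the white range. The log2 fold change was 0.89 (SE 0.38, adjusted p = 0.333) at 7 weeks and -0.48 (SE 0.30, adjusted p = 0.786) at 11 weeks, and neither passed. The average was 0.20 (95% interval -0.39 to 0.80, adjusted p = 0.687), which was 0.06 without yellow replicate 3 of 11 weeks and 0.10 without yellow replicate 4 of 7 weeks. Without that replicate 3 the value at 11 weeks was -0.76. The change of the colour difference between the ages was -1.36 (SE 0.52) with an unadjusted p of 0.0232 and an adjusted p of 0.738.

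MLPH, the linker between RAB27A and the motor, gave the most even difference. The gene is on chromosome 7 (chr7:4815804-4833602, ENSGALG00000003904). At 7 weeks its FPKM was 4.98, 3.27 and 4.51 in white and 6.98, 6.33 and 6.20 in yellow follicles. At 11 weeks it was 7.10, 9.91 and 8.12 in white and 13.8, 12.6 and 15.2 in yellow follicles. All yellow libraries of an age lay above all white ones of that age, and no library stood apart. The ratio of the means was 1.53 at 7 weeks and 1.66 at 11 weeks. The average log2 fold change was 0.68 (SE 0.12, 95% interval 0.40 to 0.95, adjusted p = 0.0390 from limma), with an exact permutation p of 0.005, the smallest the test can give. The adjusted p of MLPH ranged from 0.0319 to 0.355 over the alternative settings, in which the log2 fold change stayed between 0.59 and 0.74. Leaving out any single library other than yellow replicate 3 of 7 weeks took it above 0.05, to between 0.0536 and 0.119.

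Its partners RAB27A and MYO5A differed less between the colours or less evenly. Both genes lie on chromosome 10, 728 kb apart (RAB27A at chr10:8432339-8464678, ENSGALG00000004435, and MYO5A at chr10:9192217-9282305, ENSGALG00000031987). RAB27A stood at 17.5, 17.5 and 14.2 FPKM in white and 20.7, 15.4 and 20.6 in yellow follicles at 7 weeks. At 11 weeks RAB27A had 41.3, 47.2 and 40.0 in white and 42.3, 45.4 and 50.8 in yellow follicles. The colours overlapped at both ages, and the average log2 fold change of 0.15 (95% interval -0.07 to 0.37, adjusted p = 0.400) leaves a change of 1 outside its interval. MYO5A stood at 0.536, 0.803 and 0.719 FPKM in white and 1.14, 0.781 and 1.39 in yellow follicles at 7 weeks. At 11 weeks MYO5A had 2.60, 2.59 and 2.87 in white and 2.21, 10.4 and 2.15 in yellow follicles. The yellow mean of MYO5A at 11 weeks thus rested on replicate 3, and without that library the average log2 fold change fell from 0.52 (adjusted p = 0.429) to 0.16 (adjusted p = 0.652).

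BLOC-2 is a complex of HPS3, HPS5 and HPS6 that tethers endosomal carriers to the melanosome. HPS3 (chr9:24057104-24083265, ENSGALG00000040089) stood at 0.605, 0.881 and 0.898 FPKM in white and 1.37, 0.937 and 1.71 in yellow follicles at 7 weeks. At 11 weeks HPS3 had 2.48, 2.41 and 3.23 in white and 3.83, 4.82 and 3.43 in yellow follicles. HPS3 was higher in every yellow library than in every white library of its age, with an average log2 fold change of 0.61 (SE 0.18, adjusted p = 0.148, exact permutation p = 0.005). HPS5 (chr5:12693357-12712111, ENSGALG00000032502) had 1.45, 1.69 and 1.96 in white and 1.95, 1.29 and 2.74 in yellow follicles at 7 weeks. At 11 weeks HPS5 had 4.79, 5.57 and 4.26 in white and 3.41, 6.56 and 5.06 in yellow follicles. HPS5 overlapped between the colours at both ages, with an average of 0.08 (95% interval -0.38 to 0.55, adjusted p = 0.843).

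BLOC-3 consists of HPS1 and HPS4 and is the exchange factor of RAB32 and RAB38. HPS1 (chr6:23202998-23207986, ENSGALG00000017419) stood at 17.1, 15.4 and 17.2 FPKM in white and 14.5, 15.0 and 15.0 in yellow follicles at 7 weeks. At 11 weeks HPS1 had 11.4, 13.2 and 13.5 in white and 15.2, 10.4 and 19.5 in yellow follicles. The yellow libraries of 7 weeks all lay below the white ones, a pattern that was not counted over all genes. Those of 11 weeks lay on both sides, and the average was 0.02 (95% interval -0.27 to 0.31, adjusted p = 0.939 from limma). AP3B1, the large beta subunit of AP-3, is on chromosome Z (chrZ:22789927-22948747, ENSGALG00000004390). Its FPKM at 7 weeks was 3.11, 3.35 and 3.23 in white and 4.73, 3.86 and 5.76 in yellow follicles. At 11 weeks AP3B1 had 8.93, 8.67 and 8.85 in white and 9.31, 11.9 and 9.48 in yellow follicles. The yellow libraries were above the white ones at both ages, with an average log2 fold change of 0.37 (SE 0.11, adjusted p = 0.147, exact permutation p = 0.005).

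Counted by overlap alone, every yellow library lay above every white library for MLPH, AP3B1, HPS3 and RAB38 at 7 weeks, as for 12.1% of all genes tested. At 11 weeks this held for MLPH, AP3B1, HPS3 and RAB32, as for 7.99% of all genes. MLPH, AP3B1 and HPS3, 3 of the 9, had it at both ages, as had 1.97% of all genes. With 3 libraries against 3, the exact permutation test within an age cannot give a p below 0.10.

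**Figure D2:**
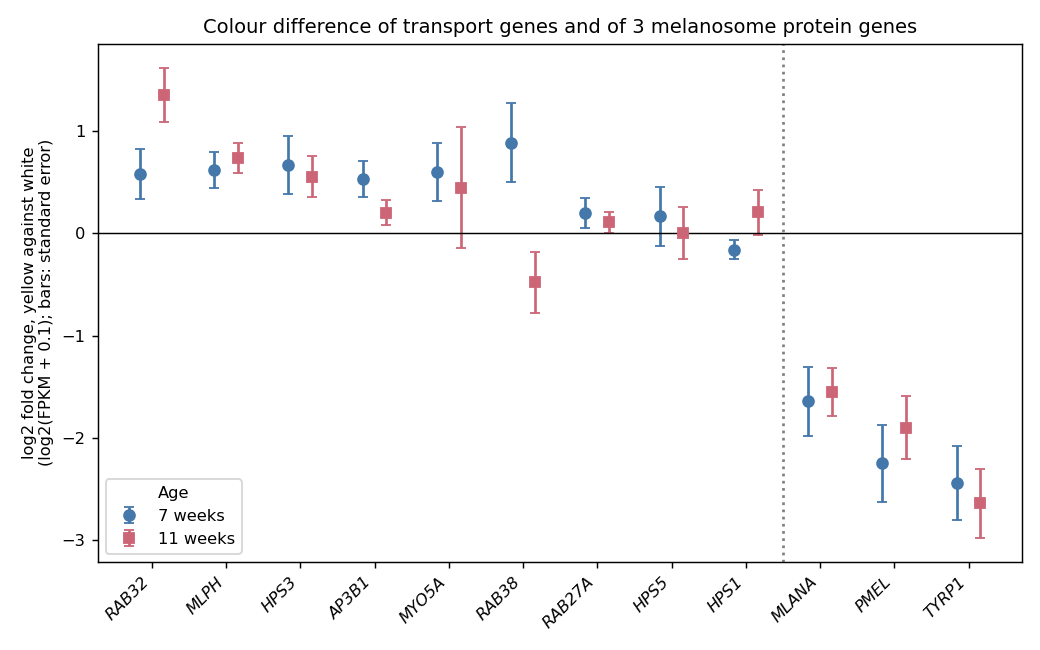
Log2 fold change of yellow against white follicles (vertical axis, on log2(FPKM + 0.1), bars are standard errors from limma) for the 9 genes and for MLANA, PMEL and TYRP1, at 7 weeks (circles) and 11 weeks (squares), from 3 libraries per colour at each age. RAB32 and MLPH lie above 0 at both ages (RAB32 at 0.58 and 1.35), RAB38 changes side (0.89 and -0.48), and the 3 melanosome protein genes lie at -1.55 and below.

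These differences ran against those of the genes for the melanosome's own proteins. PMEL, which forms the fibrils of eumelanosomes, TYRP1, an enzyme of eumelanin synthesis, and MLANA, a melanosome membrane protein, had average log2 fold changes of -2.07, -2.54 and -1.60 (adjusted p = 0.0180, 0.00810 and 0.0227 from limma). TYR, the gene of tyrosinase, had -0.54 (adjusted p = 0.291) and SOX10, a transcription factor of the melanocyte lineage and of Schwann cells, had -0.30 (adjusted p = 0.409). A ratio to these genes, chosen after the values were seen, sets the machinery beside its cargo within each library, over all cells of the follicle. Relative to the mean log2 of PMEL, TYRP1 and MLANA, each of the 9 genes was higher in yellow follicles, by 2.09 for HPS1 to 3.03 for RAB32 on the log2 scale. The mean of the 3 reference genes itself fell by 2.07, which is most of each difference. Such a ratio also rises for a gene with almost no difference of its own, such as HPS1 at 0.02. How many of all genes share it was not counted. Relative to TYR, which itself fell by 0.54, the ratio was higher in yellow follicles by 1.50 for RAB32 (two-sided exact permutation p = 0.01), 1.21 for MLPH (p = 0.005), 1.15 for HPS3 (p = 0.02), 1.06 for MYO5A (p = 0.045), 0.91 for AP3B1 (p = 0.015) and 0.69 for RAB27A (p = 0.045, all by the same exact test, unadjusted). For RAB38, HPS5 and HPS1 it differed by 0.74, 0.62 and 0.56, with exact p of 0.095, 0.11 and 0.10. The fall of TYR is nearly all of the difference of HPS1 and HPS5. Without the division by TYR, the same exact test gave p = 0.195 for MYO5A and p = 0.15 for RAB27A. The ratio of MYO5A was far higher in yellow replicate 3 of 11 weeks than in any other library. The other yellow libraries of that age lay within the white range. The p-values of the ratios to TYR are therefore descriptive and no separate evidence of a colour difference.

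Several of the 9 genes are also used outside melanocytes, RAB27A and AP3B1 in blood cells among them, and markers of other cells were read beside them. The summed FPKM of 10 leukocyte markers was 46.9 to 58.7 in white and 47.8 to 95.6 in yellow follicles at 7 weeks, and 56.6 to 86.7 and 54.2 to 99.2 at 11 weeks. That of 6 endothelial markers was 23.7 to 25.6 and 24.6 to 36.1 at 7 weeks, and 32.9 to 36.2 and 35.5 to 59.4 at 11 weeks. The highest sums of both lists at 7 weeks were those of yellow replicate 4, the library that was also highest for 7 of the 9 genes. At 11 weeks they were again those of yellow replicate 4, the library with the highest RAB32 (69.8). It was the highest of its group for 4 of the 9 genes, and yellow replicate 3 for 5. Of the 12 libraries, yellow replicate 4 of 11 weeks had the highest dermal pulp sum (2926) and the lowest keratinocyte sum (1012). Yellow replicate 3 of 11 weeks, the highest for MYO5A, had the lowest dermal pulp sum (1231). All 6 endothelial markers had an average above 0 in yellow follicles, as had 62.1% of all genes, with a median of 0.35 beside 0.37 for the 9 genes. An unadjusted p under 0.05 was found for 4 of the 6, as for 4 of the 9 and for 2517 of all 14553 genes. Of the 10 leukocyte markers 6 lay above 0, with a median of 0.02 and 0 under that p. No marker of either list had an adjusted p of at most 0.05. Of the 8 keratinocyte markers 5 lay above 0, of the 7 Schwann cell markers 3, of the 6 dermal pulp markers 3, of the 5 muscle markers tested 1 and of the 3 erythrocyte markers tested 3, again with none called. By age, 5 keratinocyte markers lay above 0 at 7 weeks and 2 at 11 weeks. An unadjusted p under 0.05 (limma) was found for 3 and 1 of them, beside 2091 of 13895 and 1070 of 14806 genes. TP63, DSP, DSG2 and PKP1 had yellow replicates 1 and 4 of 7 weeks above all white libraries of that age. Their replicate 3 lay within the white ones, as for RAB32. KRT5, KRT14, KRT15 and KRT75 did not show this. The part of these cells in the colour differences of the 9 genes was not tested.

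The rest of the pathway was read from 3 lists. Of the other subunits of BLOC-1, BLOC-2, BLOC-3 and AP-3, 13 of 16 names had a row, and their median log2 fold change of yellow against white was 0.02. For AP-1, the HOPS tether and SNARE proteins it was 0.14 over 17 genes, and for other Rab GTPases, effectors and motors 0.10 over 17 genes tested, beside 0.07 for all genes. None of these 47 genes had an adjusted p of at most 0.05. An unadjusted p under 0.05 was found for 9 of them, a share similar to that of all genes (2517 of 14553). The 3 genes with the smallest p were SYTL2, RILP and VPS39. SYTL2 encodes a synaptotagmin-like effector that binds RAB27A on melanosomes. Its FPKM was 0.284, 0.379 and 0.543 in white and 0.779, 0.597 and 0.572 in yellow follicles at 7 weeks. At 11 weeks SYTL2 had 1.02, 1.51 and 0.950 in white and 2.71, 2.50 and 2.07 in yellow follicles. SYTL2 did not overlap between the colours at either age, with an average of 0.81 (SE 0.18, adjusted p = 0.0866). RILP, an effector of RAB7 that links organelles to dynein, had 0.54 (adjusted p = 0.0944), and VPS39, a HOPS subunit, had 0.33 (adjusted p = 0.193).

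The second question was how the machinery differs between 7 and 11 weeks of age. Averaged over both colours, 8 of the 9 genes passed both thresholds upwards at 11 weeks, where 25.0% of all 14553 genes did, and none passed downwards, where 2.96% did. Exact permutation tests of age labels within each colour gave p = 0.005 for each of the 8, the smallest possible. In white follicles 6 members passed both thresholds upwards (26.6% of all genes) and in yellow follicles 7 (20.2% of all genes). All 8 had every 11-week library above every 7-week library in both colours, as had 40.5% of all genes. The median change of the 9 was 1.34, beside 0.44 for all genes. FPKM are shares of a library, and the general shift depended on the scale. With median-of-ratios scaling the median of all genes moved from 0.44 to 0.03, and the genes past both thresholds from 25.0% higher and 2.96% lower to 15.7% higher and 10.5% lower. Under it 8 members still had an adjusted p of at most 0.05 upwards, as had 32.5% of all genes, with a median of 0.89 over the 9, but only RAB38, MYO5A and HPS3 passed both thresholds.

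RAB38 changed most of the 9. From 7 to 11 weeks the mean FPKM of white follicles rose 8.66-fold, from 0.665 to 5.76, and that of yellow follicles 3.39-fold, from 1.27 to 4.30. Its average log2 change was 2.33 (SE 0.26, adjusted p = 1.3e-05) and 1.91 with median-of-ratios scaling. RAB32 rose 1.74-fold in white follicles, to 18.3, and 2.97-fold in yellow follicles, to 48.4, with an average of 1.17 (SE 0.20, adjusted p = 2.9e-04) and 0.72 with median-of-ratios scaling. Under that scaling RAB32 in white follicles alone had 0.28 (adjusted p = 0.174).

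Among the 3 proteins of the transport chain, MYO5A changed by 1.76 (SE 0.35, adjusted p = 8.4e-04), RAB27A by 1.34 (SE 0.09, adjusted p = 1.1e-06) and MLPH by 1.03 (SE 0.12, adjusted p = 1.8e-05) on the log2 scale. The mean FPKM of RAB27A rose 2.61-fold in white follicles, to 42.8, and 2.44-fold in yellow follicles, to 46.1. For MYO5A the yellow libraries alone gave an adjusted p of 0.0597, which was 0.0466 without replicate 4 of 11 weeks. Without yellow replicate 3 of 11 weeks the average over both colours was 1.39 (adjusted p = 4.1e-05). In MLPH, white follicles with median-of-ratios scaling gave 0.47 (adjusted p = 0.0801).

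The tethering and sorting subunits split. HPS3 changed by 1.60 (SE 0.18, adjusted p = 1.2e-05), HPS5 by 1.38 (SE 0.20, adjusted p = 9.3e-05) and AP3B1 by 1.26 (SE 0.11, adjusted p = 2.6e-06). HPS1 was the exception among the 9, with -0.20 (SE 0.13, adjusted p = 0.173, exact permutation p = 0.23). In white follicles HPS1 fell by 0.39 (adjusted p = 0.00953), a direction in which 16.1% of all genes were called there, a call lost with the spread of all 12 libraries (adjusted p = 0.0830). In yellow follicles it changed by -0.02 (adjusted p = 0.941). With median-of-ratios scaling the average of HPS1 was -0.65 (adjusted p = 6.7e-04), and without yellow replicate 4 of 11 weeks it was -0.31 (adjusted p = 0.0186). HPS1 therefore stayed below the median of all genes on either scale.

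At an adjusted p of at most 0.05, 51.9% of all genes were higher at 11 weeks and 16.9% lower. Beside that, 7 of 10 leukocyte markers were higher, 5 of 6 endothelial markers, 4 of 6 dermal pulp markers, 4 of 8 keratinocyte markers (with 1 lower) and 2 of 7 Schwann cell markers. Muscle markers had 1 of 5 higher and 1 lower, and 2 of 3 erythrocyte markers tested were lower. Of the melanocyte markers 3 were higher and 3 lower, among the latter PMEL (-1.20) and MLANA (-1.06). The keratinocyte markers spanned a wide range, from -1.05 to 3.04 with a median of 0.69, where the highest of the 9 genes had 2.33. In white follicles PKP1 had 7.12 to 23.4 FPKM at 7 weeks and 193 to 208 at 11 weeks. KRT14 went the other way, from 207 to 249 at 7 weeks to 96.5 to 118 at 11 weeks. The part of these cells in the age differences of the 9 genes was not tested.

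**Figure D3:**
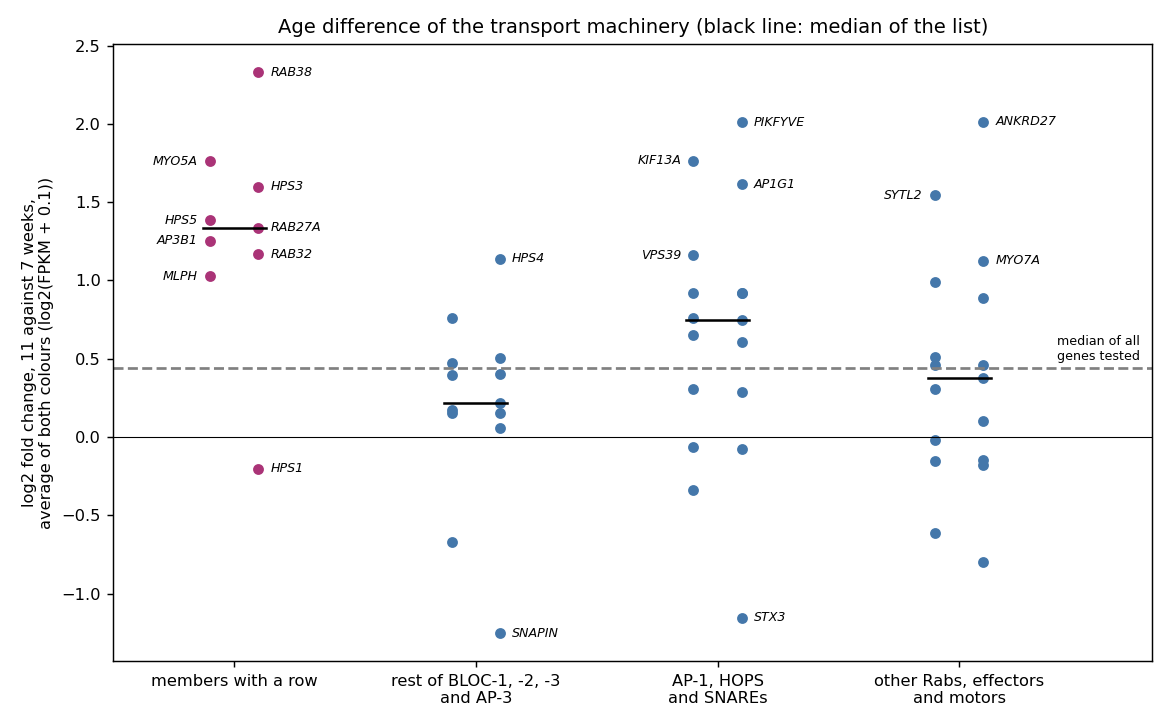
Log2 fold change of 11 against 7 weeks (vertical axis, average of both colours, 12 libraries) for the 9 genes and for the 3 pathway lists, with a point per gene, a black line at the median of each list and a dashed line at the median of all genes tested (0.44). The 9 genes have a median of 1.34 and the rest of their complexes 0.21, and genes beyond 1 in either direction are named.

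Subunits of the same complex differed in their age change. Of the 13 other subunits of BLOC-1, BLOC-2, BLOC-3 and AP-3, 1 passed both thresholds upwards (HPS4, 1.14) and 1 downwards (SNAPIN, a BLOC-1 subunit, -1.25), with a list median of 0.21, beside 0.44 for all genes. With median-of-ratios scaling that list held 0 upwards and 2 downwards, AP3S2 and SNAPIN. A ratio of partners within a library cancels its scaling, apart from the 0.1 added to each FPKM. Chosen after the values were seen, 8 such ratios gave 16 exact permutation tests with Benjamini-Hochberg adjustment over them. That adjustment does not cover the choice of the pairs, several of which joined genes already seen to differ in their age change. The p-values of these ratios are therefore descriptive and no separate evidence. HPS4 to HPS1, the subunits of BLOC-3, had a log2 ratio of -3.35, -2.67 and -2.97 in white and -2.25, -3.27 and -2.03 in yellow follicles at 7 weeks. At 11 weeks the ratio was -1.35, -1.35 and -1.39 in white and -1.43, -0.96 and -2.01 in yellow follicles. HPS4 thus came closer to HPS1 by 1.34 with age (adjusted p = 0.0133 by the exact test). A colour difference of this ratio was not shown (0.19, unadjusted p = 0.465 by the exact test).

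The other ratios set members beside chosen partners. In BLOC-2, HPS3 and HPS5 gained on HPS6 by 1.20 and 0.98 with age (adjusted p = 0.0133 each, exact test). With a pseudocount of 1 the gain of HPS3 was 0.69. In AP-3, AP3B1 gained on the subunits AP3M1 and AP3S1 by 0.86 and 1.10 (adjusted p = 0.0133 each, exact test). Other AP-3 subunits were not paired. In white and yellow follicles the mean FPKM of AP3M2 rose with age from 10.2 and 10.2 to 16.2 and 18.5. That of AP3B2 rose from 1.26 and 1.26 to 1.85 and 1.73, and that of AP3S2 fell from 63.2 and 45.1 to 35.5 and 32.3. AP3B1 also stood higher against AP3M1 in yellow than in white follicles, by 0.42 (adjusted p = 0.0133), without overlap at either age. MLPH to RAB27A was higher in yellow follicles by 0.52 (adjusted p = 0.0229) and changed by -0.31 with age (adjusted p = 0.0945). MYO5A to RAB27A gave 0.37 between the colours and 0.42 between the ages (adjusted p = 0.491 and 0.406), with yellow replicate 3 of 11 weeks far from the rest. RAB32 to RAB38 was 1.26, 1.85 and 1.82 in white and 3.71, 2.67 and 4.04 in yellow follicles at 11 weeks. Those colours did not overlap, while at 7 weeks the ratio was 3.25, 4.60 and 3.78 in white and 4.22, 2.99 and 3.48 in yellow follicles. The average of RAB32 to RAB38 passed neither test, with 0.76 between the colours (adjusted p = 0.207, exact test) and -1.16 between the ages (adjusted p = 0.072), the latter being -0.49 with a pseudocount of 1.

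**Figure D4:**
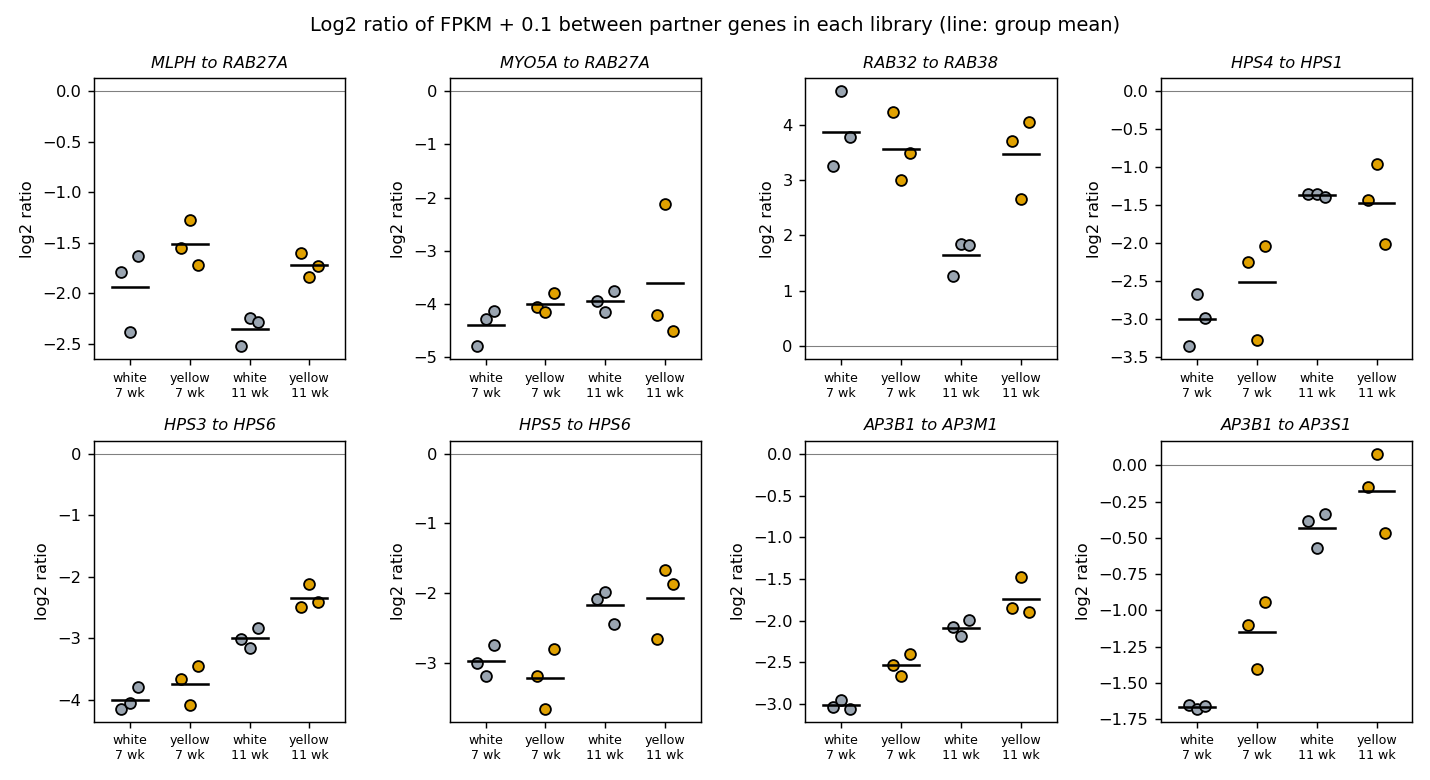
Log2 ratio (vertical axis) between genes that work together, in each of the 12 libraries, in 4 groups by colour and age with a line at the group mean. HPS4 to HPS1, HPS3 to HPS6, HPS5 to HPS6 and the AP3B1 ratios are higher at 11 weeks by 0.86 to 1.34, and RAB32 to RAB38 is lower in white follicles of 11 weeks (1.26 to 1.85) than in any other group.

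In the other pathway lists, the shares past both thresholds with age can be read beside the 25.0% of all genes higher and 2.96% lower. Of 17 AP-1, HOPS and SNARE genes, 4 passed upwards and 1 downwards. AP1G1, the gamma subunit of AP-1, rose by 1.61, KIF13A, the kinesin that works with AP-1 on melanosomal cargo, by 1.76 and VPS39 by 1.16. PIKFYVE, a lipid kinase of endosomes, rose by 2.01 from low levels (mean FPKM of 0.0688 to 1.50 over the groups), and the SNARE STX3 fell by 1.15. Of 17 other Rabs, effectors and motors, 3 passed upwards and 0 downwards. They were ANKRD27, an effector that binds RAB32 and RAB38 (2.01), SYTL2 (1.54) and the motor MYO7A (1.13). MYO7A had a group mean FPKM of 0.0152 and 0.0385 at 7 weeks and 0.126 and 0.242 at 11 weeks. It thus passed the filter on low values only through the 11-week libraries and had to differ, so its call is no result. ANKRD27 had a mean FPKM of 0.357 and 0.463 at 7 weeks and 1.69 and 2.197 at 11 weeks in white and yellow follicles. With median-of-ratios scaling, AP1G1, PIKFYVE, KIF13A, ANKRD27 and SYTL2 stayed past both thresholds upwards, VPS39, MYO7A and HPS4 did not, and DYNLL1 and SYTL1 passed downwards.

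Across the 12 libraries, with the mean of each age removed, RAB32 varied most like MLPH among the members (Pearson r = 0.81), and HPS3 most like AP3B1 (r = 0.90). RAB32 and RAB38 had r = -0.02. These are descriptions over 12 libraries that share the colour groups. Among 9130 other genes that have a symbol and reach a mean FPKM of 1, those most like RAB32 were PXDC1, NFKBIZ, FAM49B, PTPN2 and CBFB (r = 0.95 to 0.96). Those most like MLPH were SELENOS, GPR89B, SLC37A4, UBE2G2 and C1H12ORF73 (r = 0.89 to 0.97), and those most like RAB38 were PGP, PCGF6, PLA2G12A, SCYL3 and CDH2 (r = 0.82 to 0.91). PLA2G12A shared the age change of RAB38, with a mean FPKM of 2.03 and 3.85 at 7 weeks and 17.4 and 14.6 at 11 weeks in white and yellow follicles.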

How the data were processed

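RNA from nape feather follicles was sequenced in 12 libraries, 3 for each colour and age. According to the paper and the processing notes, the authors aligned filtered reads to GRCg6a with TopHat2 and Bowtie2 2.2.3 and counted them with HTSeq 0.6.0. The authors deposited FPKM for 24353 genes. Read counts were not used here, so the depth behind a value is unknown and precision comes from the spread of the libraries. The study's count-based test was therefore replaced by limma 3.58.1 in R 4.3.3 on log2(FPKM + 0.1), with eBayes and trend, keeping genes that average 0.1 FPKM or more, with Benjamini-Hochberg adjustment over all genes tested. The fits were run on simulated data with independent noise and changes larger than the colour differences of the members. Those data do not cover smaller differences or shared birds. Single ages or colours were fitted on 6 libraries, averages and changes on 12. The labels do not say whether libraries of an age came from separate birds or whether the same birds were plucked at both ages, and the paper's text can be read either way for the ages. The p-values then measure only the spread between these libraries. By the study's genotyping, birds of the same colour and number had the same Dominant white form at both ages. If birds were shared, the averages over both ages hold fewer independent birds than libraries. The limma and exact permutation p-values of the colour averages, those of 0.005 among them, could then be too small.

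The members, lists and alternatives were chosen with earlier results of these data known. Named were all members with a row and list genes past both thresholds in the age difference averaged over both colours. For the average colour difference, where no list gene passed, the 3 with the smallest p were named. Also named were 6 pigment cell genes, of which MITF was not analysed here, and the 5 genes most like RAB32, RAB38 and MLPH. List genes that passed within white or yellow follicles were not all named. Of the AP-1, HOPS and SNARE genes 6 passed upwards in white follicles, beside 4 in the average. The partner ratios, the ratios to TYR and to the melanosome protein genes, and AP3S2, DYNLL1 and SYTL1, were added after the values were seen. Alternatives were other pseudocounts, filters and scalings, eBayes without trend, a replicate block, a spread shared by all libraries and leaving out each library.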

Additional observations from a re-analysis of the deposited data

Results flagged for a closer look

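RAB38 is the member whose colour difference stood out as unlike at the 2 ages. Its log2 fold change of yellow against white was 0.89 at 7 weeks and -0.48 at 11 weeks, and the change between the ages was -1.36 (SE 0.52, unadjusted p = 0.0232 from limma's interaction term). It did not pass adjustment over the 14553 genes tested (adjusted p = 0.738), of which 973 had an unadjusted p under 0.05 and 0 an adjusted p of at most 0.05. The change ranged from -1.65 to -0.79 over 20 alternative settings.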

How the results depend on the processing

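Depth could not be used to set limits, since FPKM carry no counts. Counts of genes past both thresholds depended on the settings for colour. At 7 weeks the 4 genes became 2 with a pseudocount of 0.01 or a minimum mean FPKM of 1, 7 with median-of-ratios scaling, 18 with the replicate block, 0 with the spread of all 12 libraries and 3 to 13 without single libraries. At 11 weeks the 0 genes became 2 with eBayes without trend or the spread of all 12 libraries and 0 to 2 without single libraries. The 30 genes of the average became 13 with a pseudocount of 1, 16 with a minimum mean FPKM of 1, 1 with the replicate block and 2 to 88 without single libraries. The 0 genes of the change with age became 0 to 2 without single libraries. The 1 member with an adjusted p of at most 0.05 in the average became 0 without a filter, with median-of-ratios scaling, with eBayes without trend and with the replicate block, and 0 to 4 without single libraries, where members past both thresholds were 0 to 1. With a pseudocount of 1 the 4492, 3234 and 4071 genes called for age in white, in yellow and on average became 2607, 1872 and 2219, and without single libraries the yellow count was 2015 to 3418. Members past both thresholds fell to 3 with median-of-ratios scaling in white, yellow and on average, to 4 in yellow with a pseudocount of 1, and to 5 to 7 in yellow without single libraries. The calls of all genes fell as well. With median-of-ratios scaling 16.1%, 11.5% and 15.7% of all genes passed upwards in white, yellow and on average, beside 26.6%, 20.2% and 25.0% in the main fits. Members near 0 in the average colour difference changed sign: HPS1 (0.02) with median-of-ratios scaling (-0.035), with the block (-0.0080) and without single libraries (-0.082 to 0.14), HPS5 (0.08) with the block (-0.043) and without single libraries (-0.0425 to 0.22), and RAB38 (0.20) with the block (-0.086). No other member's average over ages or colours changed sign. Within an age or colour, HPS5 at 7 weeks (0.17) became -0.083 without yellow replicate 4 and -0.084 with the block, MYO5A at 11 weeks (0.45) became -0.29 without yellow replicate 3, and HPS1 in yellow follicles with age (-0.02) became 0.22 without yellow replicate 3 of 11 weeks. With the block, recomputed for the 9 members in the 3 colour and 3 age differences, MLPH alone moved across 0.05, in the average colour difference, and its average age difference of 0.95 was no longer past 1. Deviations of libraries of the same number had r from -0.04 to 0.24 between colours, which are pairs of different birds. Between ages every r was above 0, from 0.10 to 0.27. The lowest of these, 0.0964 for yellow replicate 3, lay under the 0.1 set as a minimum for pairing, and the others were 0.14 or more. The main fits did not pair the libraries, because it is not known whether libraries of the same number came from the same birds. No r between libraries of unlike number is given here for comparison. These r do not settle whether birds were shared between the ages. With the number as a block, MLPH had an average of 0.61 (adjusted p = 0.355, limma). For colour differences that block joined a white and a yellow library of the same age and number, which are different birds. At 7 weeks both colours share only replicates 1 and 3, so white replicate 2 and yellow replicate 4 did not inform those block values. White libraries of both ages also share only replicates 1 and 3. The block values of the colour differences are therefore no check on shared birds. The partner ratios, under alternatives added after the data were seen, changed sign in colour for HPS5 to HPS6 (-0.17 to 0.08) and MYO5A to RAB27A (-0.0018 to 0.59) and in age for MYO5A to RAB27A (-0.12 to 0.65).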
